A study of Mus musculus with 8 samples.

Results

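Transcripts of 9 genes of cystic liver and kidney disease were followed in 2 populations of bile duct cells from mouse liver. The genes were Pkhd1, Pkd1, Pkd2, Prkcsh, Sec63, Invs, Tmem67, Cys1 and Bicc1, chosen by symbol from the 20377 gene symbols of the deposited tables. All 9 were found, and where a symbol had several transcripts the one with the most reads was kept. Both populations were sorted from liver cells other than hepatocytes of wild-type C57BL/6 mice. The cells bound MIC1-1C3, an antibody to duct cells, lacked CD26 and were not blood cells, and a high or low level of ST14 (matriptase, a membrane protease of epithelia) divided them into an ST14high and an ST14low population, with 4 libraries of each. The labels give no age or sex, and they do not say whether libraries came from separate animals, so p-values reflect the spread among these libraries alone, and that spread may be technical.

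Duct cells carry a primary cilium that bends with the flow of bile, and most of these genes encode proteins of that cilium or of its base. Fibrocystin, the product of Pkhd1, and the polycystins of Pkd1 and Pkd2 are membrane proteins of the cilium, and their loss gives cystic ducts with or without fibrosis. Prkcsh and Sec63 act instead in the endoplasmic reticulum, where they serve the folding and entry of membrane proteins such as the polycystins, and their loss in humans gives polycystic liver disease.

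The libraries held 17418202 to 42769988 counts in ST14high and 6398307 to 31011678 counts in ST14low, with the fewest in ST14low replicate 3. Every one of the 9 genes had at least 225 counts in each library, and all 9 passed the filter on low counts. Markers of duct cells were present in all libraries. Of these, 9 summed to 14048 to 24632 CPM (counts scaled to a common library size) in ST14high and 19125 to 25927 CPM in ST14low. Most of this sum was Spp1, at a mean of 15998 CPM in ST14high and 18614 CPM in ST14low. Krt19, Krt7 and Slc4a2 had higher means in ST14high, and the others had lower means there. The transcript of St14, whose surface protein set the sort, averaged 305 ± 32.5 CPM in ST14high cells, against 329.9 ± 49.0 CPM in ST14low cells (SD, n = 4 each; log2 fold change -0.11, edgeR adjusted p = 0.809). Other cell types contributed unequally. ST14high replicate 1 held 6905 CPM of pancreatic acinar markers, 2584 CPM of fibroblast, stellate cell and smooth muscle markers and 1021 CPM of mesothelial markers. The other 7 libraries held at most 984, 793 and 402 CPM of these. The mesenchymal and mesothelial sums also separated the populations without that library. Fibroblast, stellate cell and smooth muscle markers summed to 593 to 793 CPM in the other ST14high libraries and 238 to 528 CPM in ST14low, and mesothelial markers to 298 to 402 CPM in the other ST14high libraries and 156 to 269 CPM in ST14low. Macrophage and dendritic cell markers summed to 307 to 421 CPM in ST14high and 417 to 1071 CPM in ST14low, and endothelial markers to 19.1 to 974 CPM in ST14high and 257 to 1097 CPM in ST14low. Hepatocyte markers summed to 4797 to 12174 CPM in ST14high and 7566 to 14054 CPM in ST14low, although hepatocytes were not sorted. Lymphocyte markers summed to at most 5.75 CPM in ST14high and 20.1 CPM in ST14low. In ST14low replicate 2, genes with long transcripts were low. The median of the longest quartile of transcripts minus that of the shortest was -0.73 on the log2 scale in this library, where the other 7 ranged from -0.01 to 0.36 over 11574 genes.

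Promoter stretches are shown for Pkd1 and Cys1, the pair of genes whose populations did not overlap in CPM. The sequences are the 250 bases before the annotated start from RefSeq on build GRCm38.p6, which held 7 of the 9 genes (all but Tmem67 and Bicc1). They lie on the plus strand at chr17:24549700-24549949 for Pkd1 and on the minus strand at chr12:24681796-24682045 for Cys1. Capitals mark the GC boxes in Pkd1, and the Cys1 stretch holds none.
Pkd1: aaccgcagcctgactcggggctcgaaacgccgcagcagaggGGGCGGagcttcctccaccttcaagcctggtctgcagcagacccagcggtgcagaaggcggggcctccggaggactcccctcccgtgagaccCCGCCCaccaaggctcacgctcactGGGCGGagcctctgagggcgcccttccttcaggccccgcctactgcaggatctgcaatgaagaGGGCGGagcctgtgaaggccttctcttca
Cys1: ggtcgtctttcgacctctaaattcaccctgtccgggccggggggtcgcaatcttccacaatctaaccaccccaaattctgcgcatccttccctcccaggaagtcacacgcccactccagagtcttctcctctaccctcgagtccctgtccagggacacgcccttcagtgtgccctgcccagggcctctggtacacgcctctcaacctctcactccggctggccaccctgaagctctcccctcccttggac
The GC box, GGGCGG on either strand, occurred 4 times each in Pkd1 and Sec63, in no other stretch of the set, and at least once in 32.7% of all 32851 stretches of this length. The core of the X-box, a motif of ciliary genes (GTTGCC on either strand), occurred in Prkcsh and in 10.4% of all stretches, and the endoplasmic reticulum stress element, CCAAT and CCACG with 9 free bases between them on either strand, occurred in none of the 7 and in 0.11% of all. These matches describe letters only and were not tested for binding.

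The transcripts counted lie in build mm9, per the submitters' notes. Pkhd1 spans 20047859 to 20608138 of chromosome 1 on the minus strand, the widest of the set at 560.3 kb, and Prkcsh the narrowest at 11.2 kb (chromosome 9, 21807478 to 21818666, plus strand). Pkd1 (chromosome 17, 24686894 to 24733459, plus strand) overlaps Tsc2 on the other strand by 579 bases, and Invs (chromosome 4, 48292673 to 48444825, plus strand) overlaps Tex10 by 999 bases. Whether the counting used strand is not given in the sources used here, so reads in these overlaps cannot be assigned. Pkd2 lies on chromosome 5 (104888475 to 104934838, plus strand) and Tmem67 on chromosome 4 (11966503 to 12015104, minus strand). Sec63 and Bicc1 lie on chromosome 10, at 42481301 to 42552320 on the plus strand and at 70387847 to 70622382 on the minus strand. Cys1, on chromosome 12 (25350702 to 25366660, minus strand), had 3 transcripts with 19980, 19719 and 19010 counts over the 8 libraries. In the GENCODE M21 annotation the counted transcripts have from 5 exons in Cys1 to 67 in Pkhd1.

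Levels of different genes were compared on the authors' RPKM values (read counts scaled by transcript length and sequencing depth). Bicc1, an RNA-binding protein whose mutation gives cystic kidneys and bile ducts in mice, had the highest level, at 294 ± 50.9 RPKM in ST14high and 272 ± 17.8 RPKM in ST14low. Values with ± are mean ± SD (n = 4 each). Bicc1 ranked 138 of 20377 symbols by mean RPKM. Pkhd1 followed at 147 ± 24.8 RPKM in ST14high and 158 ± 30.6 RPKM in ST14low, rank 349. Prkcsh was at 107 ± 13.0 RPKM in ST14high and 119 ± 24.8 RPKM in ST14low, Pkd2 at 77.2 ± 9.87 RPKM in ST14high and 67.5 ± 15.1 RPKM in ST14low, and Cys1 at 65.8 ± 24.8 RPKM in ST14high and 45.3 ± 5.58 RPKM in ST14low. The other 4 were lower. Sec63 was at 27.7 ± 2.84 RPKM in ST14high and 25.5 ± 7.90 RPKM in ST14low, and Pkd1 at 17.0 ± 1.42 RPKM in ST14high and 13.4 ± 2.71 RPKM in ST14low. Tmem67 was at 10.9 ± 2.38 RPKM in ST14high and 12.8 ± 1.75 RPKM in ST14low, and Invs at 8.29 ± 1.01 RPKM in ST14high and 8.74 ± 0.508 RPKM in ST14low, rank 8652. Across all 8 libraries Bicc1 exceeded Pkhd1, Prkcsh exceeded Pkd2 and Cys1 exceeded Sec63 with ranges that did not overlap. The ranges of the other neighbours overlapped, and Pkhd1 over Prkcsh, Pkd2 over Cys1 and Pkd1 over Tmem67 held in 7 of the 8 libraries.

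The comparison asks whether duct cells sorted by surface ST14 differ in these genes. None of the 9 passed. In edgeR's quasi-likelihood test 0 of 9 had an adjusted p under 0.05, where 0% of 13749 genes tested did, and DESeq2 and limma's voom also called 0 of 9, where DESeq2 called 1.72% of all genes it could call. Fold changes of the 9 lay between -0.22 and 0.56 on the log2 scale (ST14high over ST14low), 5 above 0 and 4 below, with a median of 0.13 beside 0.0023 over all genes tested. Single libraries moved that median, which was 0.024 without ST14low replicate 2, 0.038 without ST14high replicate 3 and at most 0.16 with any 1 library left out. At an unadjusted p under 0.05 there were 2 of 9, Cys1 and Pkd1, both higher in ST14high, where 6.89% of all genes were higher at that level and 2.68% lower. In the same pair every ST14high library lay above every ST14low library in CPM, which held for 4.09% of all genes. None of the 9 lay wholly below, as 2.33% of all genes did, and 6.42% were apart in either direction. For 8 of the 9 genes the 95% interval of the fold change excluded a 2-fold difference in either direction. In such bulk samples a smaller share of cells that carry a transcript and less RNA per cell cannot be told apart.

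**Figure D1:**
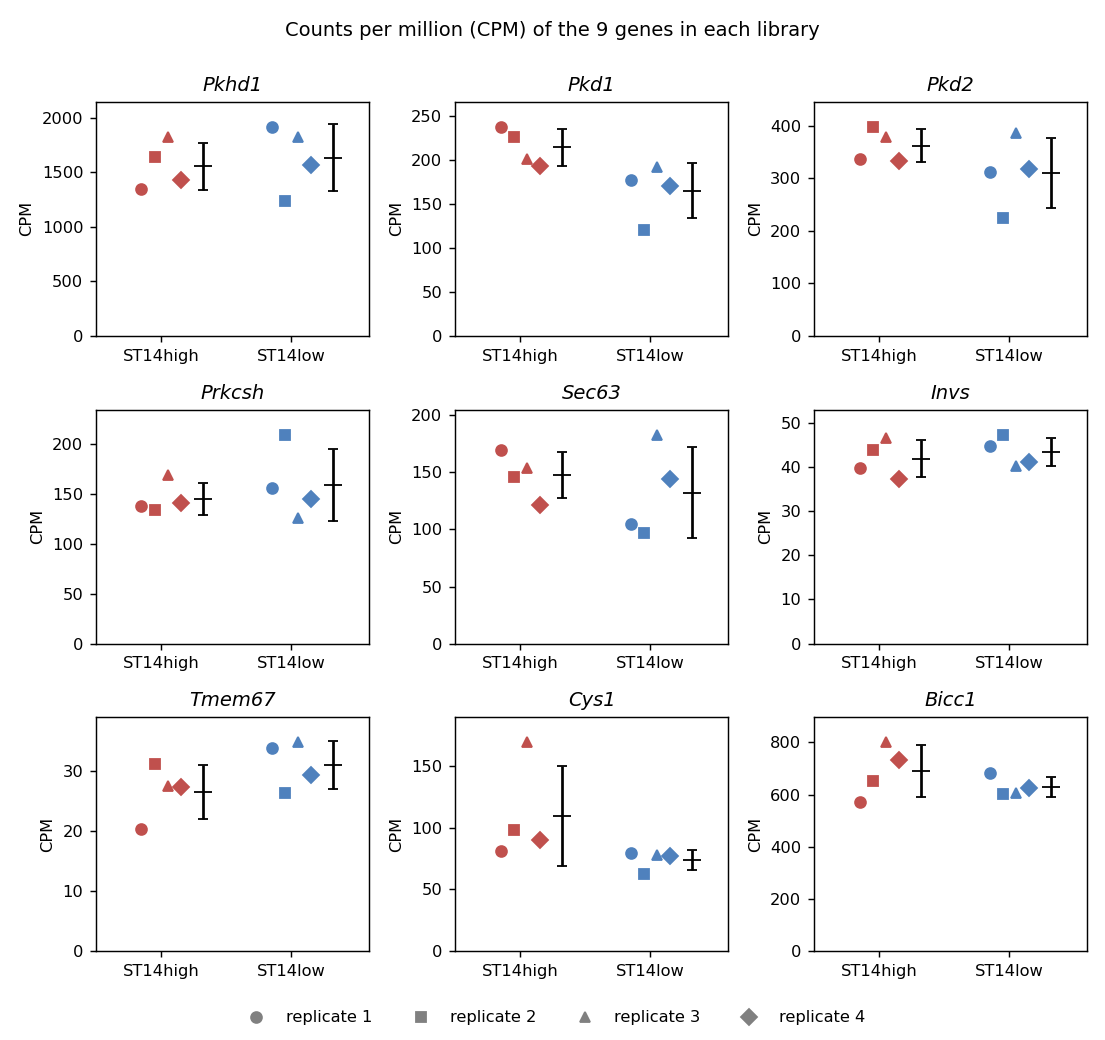
CPM of each of the 9 genes, with ST14high libraries in red and ST14low libraries in blue. The marker shape gives the replicate, and the black bars are mean ± SD (n = 4). The populations are apart in Pkd1 and Cys1 and overlap in the other 7.

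Pkhd1, the gene of fibrocystin, whose loss causes recessive polycystic kidney disease with fibrosis around the bile ducts, showed no difference that passed. Its CPM was 1342, 1635, 1818 and 1424 in ST14high replicates 1 to 4 and 1914, 1234, 1822 and 1565 in ST14low replicates 1 to 4. Both populations covered nearly the same range, and the lowest library was ST14low replicate 2. ST14high over ST14low gave a log2 fold change of -0.072 (SE 0.18; 95% interval -0.47 to 0.33) (edgeR's quasi-likelihood test, adjusted p = 0.915). It was -0.20 without ST14low replicate 2, 0.011 without ST14low replicate 1 and -0.30 with the length trend of each library as an offset, Pkhd1 being longer than 99.2% of the genes compared for length.

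The polycystins form one complex, with polycystin-1 as the large receptor-like subunit and polycystin-2 as the cation channel. Pkd1 was at 238, 226, 202 and 193 CPM in ST14high cells, against 178, 120.1, 192 and 171 CPM in ST14low cells. The populations did not overlap, but the gap was narrow, with 193 CPM in ST14high replicate 4 and 192 CPM in ST14low replicate 3. On the log2 scale the fold change was 0.38 (SE 0.16; interval 0.017 to 0.74). It did not pass over all genes (edgeR adjusted p = 0.507), and the exact two-sided permutation p was 0.0286, the lowest possible with 4 libraries on each side. Pkd1 is longer than 99.6% of the genes compared for length, and ST14low replicate 2, the library low in long transcripts, held its lowest value. Its fold change on the log2 scale became 0.24 when that library was left out and 0.11 with the length trend of each library as an offset. The part of transcript length in the Pkd1 difference was not tested, and the same offset left Pkd2 at 0.18 and moved Invs to -0.16. Tsc2, which overlaps Pkd1, was at 149 ± 8.91 CPM in ST14high cells, against 133 ± 21.9 CPM in ST14low cells. Its part in the Pkd1 counts was not tested.

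Pkd2 was at 337, 398, 379.6 and 334 CPM in ST14high cells, against 313, 225, 387 and 317 CPM in ST14low cells. All ST14low values but that of replicate 3 lay under the ST14high range, so the populations overlapped through 1 library. The log2 fold change was 0.22 (SE 0.17; interval -0.16 to 0.60; edgeR adjusted p = 0.688), 0.083 without ST14low replicate 2 and 0.34 without ST14low replicate 3.

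The count of Pkd1 over that of Pkd2 within a library needs no library size. This ratio was 0.705, 0.569, 0.533 and 0.579 in ST14high and 0.569, 0.533, 0.497 and 0.540 in ST14low, uncorrected for length. The ratio was highest in ST14high replicate 1, and the populations overlapped. The difference of mean log2 ratios was 0.15 (exact two-sided permutation p = 0.114, and 0.229 adjusted over both ratios), and it was 0.068 without ST14high replicate 1.

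Prkcsh encodes the beta subunit of glucosidase II, the enzyme that trims glucose from new glycoproteins, and Ganab encodes the catalytic alpha subunit. Prkcsh was at 138, 134, 169 and 141 CPM in ST14high cells, against 156, 209.9, 126 and 145 CPM in ST14low cells. Its highest value stood in ST14low replicate 2, the reverse of Pkd1 and Pkd2. Prkcsh has a short transcript, longer than 18.9% of the genes compared. ST14high over ST14low gave a log2 fold change of -0.13 (SE 0.17; interval -0.51 to 0.25; edgeR adjusted p = 0.814), and without that library it was 0.019, while without ST14high replicate 3 it was -0.23. The count ratio of Prkcsh to Ganab was 0.461 to 0.626 in ST14high and 0.460 to 0.682 in ST14low. The difference of mean log2 ratios was -0.012 (exact two-sided permutation p = 0.943, also after adjustment over both ratios), and from -0.10 to 0.11 with 1 library left out.

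**Figure D2:**
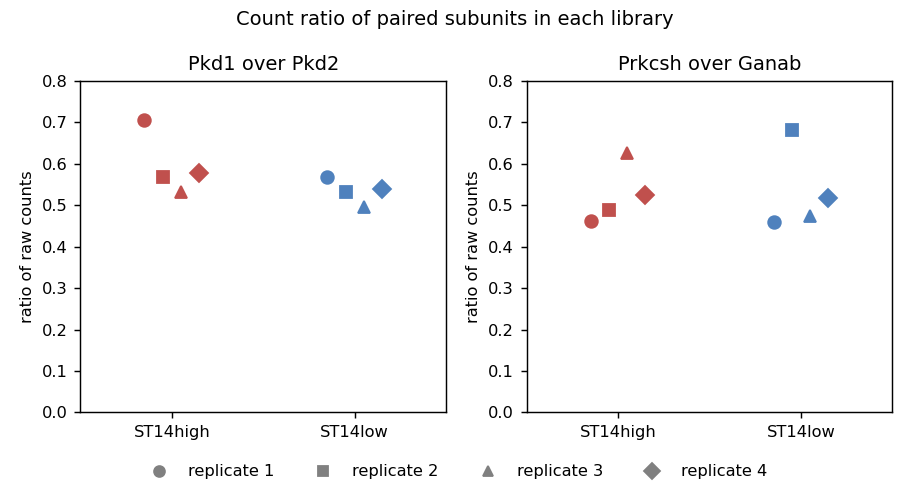
Ratio of raw counts of Pkd1 over Pkd2 and of Prkcsh over Ganab in each library, with ST14high in red and ST14low in blue; the marker shape gives the replicate. In both panels the populations overlap, and the highest values are 0.705 in ST14high replicate 1 and 0.682 in ST14low replicate 2.

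Sec63, a membrane partner of the translocon that brings proteins into the endoplasmic reticulum, was at 169.9, 146, 154 and 121 CPM in ST14high. In ST14low it was at 105, 97.2, 183 and 144 CPM. The ST14low libraries held both the lowest and the highest values. On the log2 scale the fold change was 0.16 (SE 0.21; interval -0.31 to 0.63; edgeR adjusted p = 0.813). Without ST14low replicate 2 it was 0.024, and without ST14low replicate 3 it was 0.35.

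Invs encodes inversin, which gives its name to a compartment of the ciliary shaft and is mutated in infantile nephronophthisis. It was at 39.8, 43.7, 46.6 and 37.2 CPM in ST14high cells, against 44.7, 47.3, 40.3 and 41.2 CPM in ST14low cells. The populations overlapped, and the log2 fold change was -0.052 (SE 0.13; interval -0.35 to 0.24; edgeR adjusted p = 0.915). It ranged from -0.13 without ST14high replicate 3 to -0.0015 without ST14high replicate 4. Tex10, its overlapping neighbour, was at 29.3 ± 3.94 CPM in ST14high cells, against 32.6 ± 3.93 CPM in ST14low cells.

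Tmem67 encodes meckelin, a membrane protein of the transition zone at the base of the cilium, and its mutations in humans can include fibrosis of the liver. It had the lowest counts of the set, at 20.3, 31.1, 27.4 and 27.2 CPM in ST14high cells, against 33.8, 26.2, 34.7 and 29.2 CPM in ST14low cells. The lowest value stood in ST14high replicate 1, the library with acinar and mesenchymal markers, and the populations overlapped. The log2 fold change was -0.22 (SE 0.17; interval -0.61 to 0.16; edgeR adjusted p = 0.692), and it ranged from -0.11 without that library to -0.31 without ST14high replicate 2.

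Cys1 encodes cystin, a lipid-anchored protein of the ciliary membrane that is lost in a classic mouse model of recessive polycystic kidney disease. It had the largest fold change of the 9. It was at 80.8, 97.9, 169 and 90.0 CPM in ST14high cells, against 79.5, 62.1, 78.1 and 76.7 CPM in ST14low cells. In CPM every ST14high library was higher, by a narrow margin in replicate 1 and by most in replicate 3. In RPKM the populations overlapped, with 44.54 in ST14high replicate 1 and 48.5 in ST14low replicate 1. ST14high over ST14low gave a log2 fold change of 0.56 (SE 0.23; interval 0.058 to 1.07). It did not pass over all genes (edgeR adjusted p = 0.483; exact two-sided permutation p = 0.0286, the smallest possible). One library decided its size, since without ST14high replicate 3 the log2 fold change was 0.26. With the length trend as an offset it was 0.58, and without ST14high replicate 1 it was 0.68.

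Bicc1 was at 573, 652, 800.4 and 733 CPM in ST14high cells, against 682, 602, 605 and 625 CPM in ST14low cells. Within ST14high its values spread more widely, from the lowest of all 8 libraries in replicate 1 to the highest in replicate 3. On the log2 scale the fold change was 0.13 (SE 0.14; interval -0.18 to 0.45; edgeR adjusted p = 0.769). It was 0.038 without ST14high replicate 3 and 0.21 without ST14high replicate 1.

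**Figure D3:**
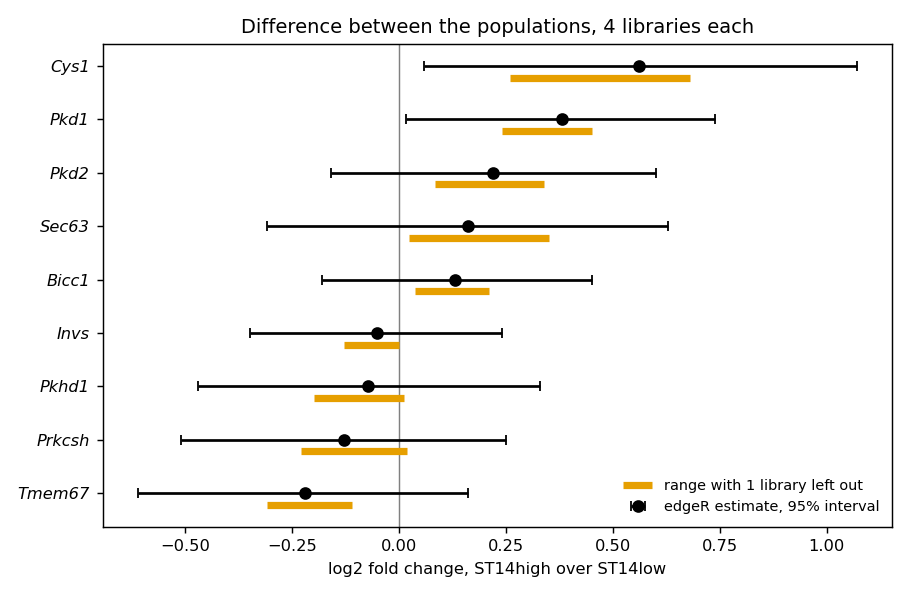
Log2 fold change of ST14high over ST14low for each of the 9 genes. Points and black lines are edgeR's estimate and 95% interval, and orange bars span the estimates with 1 library left out. Cys1, at 0.56, and Pkd1, at 0.38, are the genes whose intervals lie above 0, and none passed after adjustment over all genes.

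The 9 genes did not vary as one group across libraries. Over the 36 pairs, Pearson's r of log2 CPM was above 0 in 23 and below 0 in 13, with 6 pairs above 0.7 and 3 below -0.7 (n = 8 libraries, a description only). Pkd1 and Pkd2 varied together, with r = 0.87. Sec63 varied with both, and Prkcsh opposed all 3, with r = -0.779 to Pkd1, -0.792 to Pkd2 and -0.705 to Sec63. Prkcsh and Invs varied together, with r = 0.739, as did Pkhd1 and Tmem67, with r = 0.737. The part of transcript length in these correlations was not tested. Pkd1, Pkd2, Sec63, Pkhd1 and Invs fall in the longest quartile of transcripts and Prkcsh in the shortest. ST14low replicate 2 was the lowest library for 5 of the 9 genes and the highest for both Prkcsh and Invs, though the Invs transcript is long. Cys1 and Bicc1, both of the second quartile of length, varied together with r = 0.80.

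**Figure D4:**
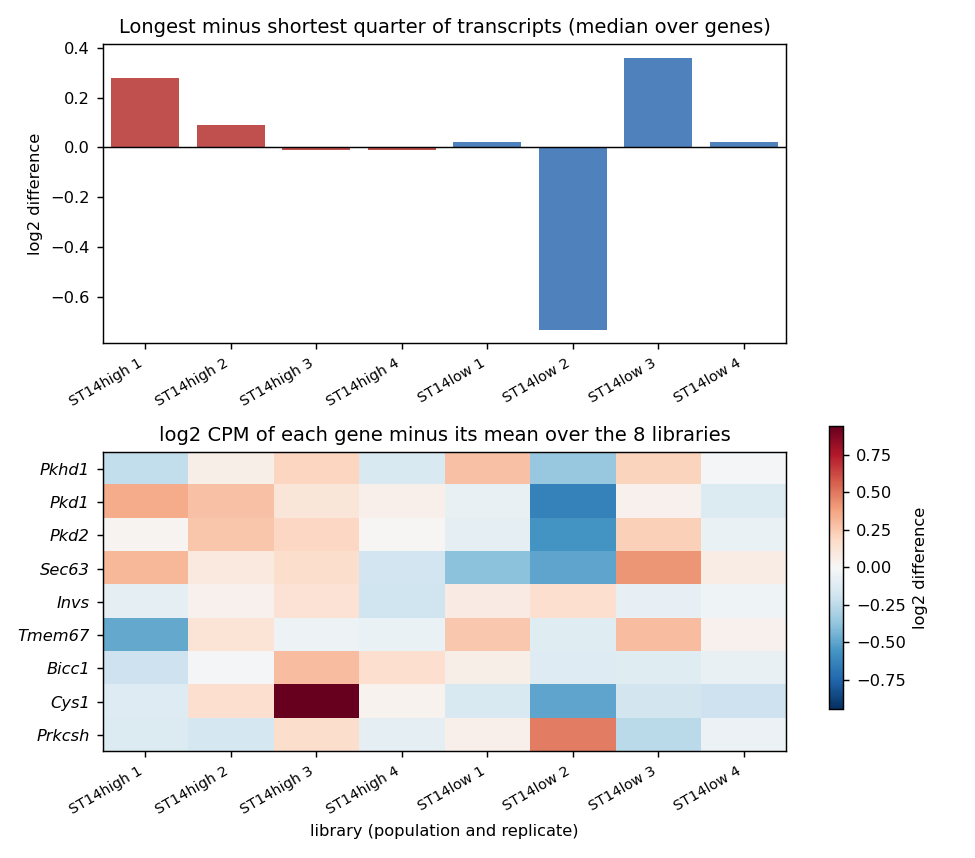
Upper panel, median log2 level of the longest quartile of transcripts minus that of the shortest quartile in each library, ST14high in red and ST14low in blue. Lower panel, log2 CPM of each of the 9 genes minus its mean over the 8 libraries. ST14low replicate 2 stands at -0.73 in the upper panel, and in the lower panel Pkd1, Pkd2, Sec63 and Pkhd1 are low there while Prkcsh is high.

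The genes most like Pkhd1 across the 8 libraries, of 10286 genes with a mean of at least 10 CPM, were Trim44 (r = 0.971), Tmem194 (r = 0.970), Spnb1 (r = 0.962), Slc39a14 (r = 0.955) and Helq (r = 0.952). The median r to Pkhd1 was 0.0157, and 30 genes exceeded 0.9. Slc39a14, a zinc transporter, was at 168 ± 21.1 CPM in ST14high cells, against 172 ± 28.7 CPM in ST14low cells, and Trim44 at 461 to 544 CPM in ST14high and 396 to 575 CPM in ST14low. With 8 libraries that differ in depth and length trend, these are descriptions of likeness.

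Genes that work beside the 9 were taken from 7 lists, and in edgeR 0 genes of any list passed over all genes. The list medians given here depend on single libraries, and their ranges with 1 library left out stand beside them. The endoplasmic reticulum list holds genes of glycoprotein synthesis, trimming and folding and of protein entry, and also Lrp5. Of its 14 genes, all tested, 3 lay above 0 and 11 below, with a median log2 fold change of -0.089 (-0.15 to -0.04 with 1 library left out) beside 0.0023 over all genes, and 1 had an unadjusted p under 0.05 (Sec62, a translocon partner, 0.51; 9.56% of all genes had such a p). Hspa5, the chaperone BiP, was at 809.5 ± 341 CPM in ST14high cells, against 789.7 ± 114 CPM in ST14low cells. Canx (calnexin), which binds glycoproteins as they fold, was at 574 ± 27.5 CPM in ST14high cells, against 613 ± 39.0 CPM in ST14low cells. Lrp5, a Wnt co-receptor, was at 278 ± 43.9 CPM in ST14high cells, against 301 ± 28.6 CPM in ST14low cells.

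Relatives of the polycystins and fibrocystin were mostly low. Of 7 listed, 4 were tested, all above 0 with a median of 0.22 (0.089 without ST14low replicate 2 to 0.37 without ST14low replicate 1). Only 1 gene had an unadjusted p under 0.05, as did 9.56% of all genes. That gene was Pkhd1l1 (fibrocystin-L). It was at 197, 27.1, 48.5 and 51.1 CPM in ST14high cells, against 3.11, 0.768, 12.2 and 1.91 CPM in ST14low cells. The populations did not overlap, with ST14high above as in 4.09% of all genes, and ST14high replicate 1 was highest. The log2 fold change was 4.34 (SE 0.91), and edgeR did not call it (adjusted p = 0.192) while DESeq2 did (adjusted p = 0.00213). Without ST14high replicate 1 or any other single library the log2 fold change stayed between 3.42 and 5.37. The sum of mesothelial markers moved with it, at 298 to 1021 CPM in ST14high and 156 to 269 CPM in ST14low. It was also highest in ST14high replicate 1. Most of the ST14low sum was Gpm6a, at 202 ± 33.7 CPM in ST14high cells, against 178 ± 34.4 CPM in ST14low cells. The other mesothelial markers differed more, such as Msln, at 91.0 ± 86.6 CPM in ST14high cells, against 10.1 ± 5.06 CPM in ST14low cells. So did the sum of fibroblast, stellate cell and smooth muscle markers, at 593 to 2584 CPM in ST14high and 238 to 528 CPM in ST14low. Within that sum Rgs5 went the other way, at 181 ± 55.6 CPM in ST14high cells, against 252 ± 86.7 CPM in ST14low cells. The rest had higher means in ST14high, with wide spreads among its libraries. Acta2 was at 109.9 ± 103 CPM, against 6.77 ± 7.07 CPM in ST14low. Lum was at 14.5 ± 21.0 CPM in ST14high, with a highest value of 45.8 CPM, against 6.22 ± 3.24 CPM in ST14low. The part of mesothelial and mesenchymal cells in the Pkhd1l1 difference was not tested. Pkd1l3 was at 12.3 ± 1.03 CPM in ST14high cells, against 9.62 ± 0.820 CPM in ST14low cells, and Pkd2l2 at 10.9 ± 1.95 CPM in ST14high cells, against 10.8 ± 3.18 CPM in ST14low cells. Pkhd1 itself was at -0.072 on the log2 scale, and the difference between the 2 genes' fold changes was not tested.

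Of 16 genes of the inversin compartment and nephronophthisis, all tested, 13 lay above 0 and 3 below. Their median was 0.13 (0.057 without ST14low replicate 2 to 0.16 without ST14high replicate 1). At an unadjusted p under 0.05 there were 2, both higher in ST14high, where 6.89% of all genes were higher at that level. Glis2, a zinc finger factor of nephronophthisis, was at 246, 294, 291 and 256 CPM in ST14high cells, against 204, 183, 222 and 197 CPM in ST14low cells. The populations did not overlap. ST14high over ST14low gave a log2 fold change of 0.43 (SE 0.12), not called by edgeR (adjusted p = 0.302) and called by DESeq2 (adjusted p = 0.0314). Cep164, a protein of the appendages that dock the cilium, was at 65.6 ± 4.74 CPM in ST14high cells, against 52.1 ± 7.46 CPM in ST14low cells. Its populations did not overlap either, and edgeR did not call it (adjusted p = 0.504). In 4.09% of all genes ST14high lay wholly above ST14low. Dcdc2a, the doublecortin gene whose human counterpart is mutated in neonatal sclerosing cholangitis, was at 754 ± 171 CPM in ST14high cells, against 848 ± 194 CPM in ST14low cells.

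The list of Meckel syndrome and the transition zone also holds other genes, such as Inpp5e and Csnk1d. Its 18 tested genes were split, with 10 above 0 and 8 below. Their median was 0.025 (-0.061 without ST14high replicate 3 to 0.088 without ST14high replicate 1). Only B9d1 had an unadjusted p under 0.05, as did 9.56% of all genes. Its log2 fold change was -0.60 (edgeR adjusted p = 0.510), and its populations overlapped. Its highest value, 28.1 CPM, stood in ST14low replicate 2, and with 1 library left out the log2 fold change ranged from -0.75 to -0.42. Csnk1d, a kinase, was at 218 ± 32.9 CPM in ST14high cells, against 229 ± 14.0 CPM in ST14low cells. Inpp5e, the ciliary phosphoinositide phosphatase, was at 107 ± 9.63 CPM in ST14high cells, against 96.1 ± 5.53 CPM in ST14low cells, and Cc2d2a ranged from 57.3 to 102 CPM in ST14high and from 39.4 to 80.9 CPM in ST14low.

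Among 9 transcription factors tied to cystic disease genes or to duct identity, 6 lay above 0 and 3 below, with a median of 0.13 (0.01 without ST14low replicate 2 to 0.26 without ST14low replicate 3). At an unadjusted p under 0.05 there were 3, all higher in ST14high, where 6.89% of all genes were higher at that level. They were Onecut1, Onecut2 and Glis2, which was already counted in the nephronophthisis list. Onecut1 (HNF6), a factor of duct development, was at 92.9, 161, 189.7 and 192 CPM in ST14high cells, against 62.5, 69.8, 107 and 109 CPM in ST14low cells. On the log2 scale the fold change was 0.87 (SE 0.26; edgeR adjusted p = 0.331). Onecut2 was at 868 ± 31.5 CPM in ST14high cells, against 511 ± 259 CPM in ST14low cells. Both overlapped between the populations, Onecut1 through ST14high replicate 1 and Onecut2 through ST14low replicate 3. Sox9 was at 461 ± 38.2 CPM in ST14high cells, against 477 ± 52.7 CPM in ST14low cells.

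Cyclic AMP and mTOR signals promote cyst growth in polycystic liver. Of 22 genes tested, 14 lay above 0 and 8 below. Their median was 0.06 (-0.031 without ST14high replicate 1 to 0.13 without ST14high replicate 3). An unadjusted p under 0.05 was found for 3, where 9.56% of all genes had such a p. Pde3a, a phosphodiesterase, was at 14.5, 2.31, 1.25 and 4.72 CPM in ST14high cells, against 0.384, 0.359, 0.309 and 0.438 CPM in ST14low cells. These ST14low values rest on 9, 7, 2 and 14 counts. The log2 fold change of 3.88 (SE 0.80) was not called by edgeR (adjusted p = 0.192) and was called by DESeq2 (adjusted p = 0.000234). Without ST14high replicate 1 it was 2.85. As with Pkhd1l1, the highest value stood in ST14high replicate 1, the library richest in mesothelial and mesenchymal markers, and the part of those cells was not tested. Adcy5, an adenylyl cyclase, had a log2 fold change of 1.61 and of 0.98 without ST14high replicate 1, and Adcy8 had one of -0.76. Adcy6, another cyclase, was at 353 ± 35.2 CPM in ST14high cells, against 293 ± 27.5 CPM in ST14low cells (edgeR adjusted p = 0.545). Prkar1a, a regulatory subunit of protein kinase A, was at 358 ± 17.4 CPM in ST14high cells, against 423 ± 34.2 CPM in ST14low cells (edgeR adjusted p = 0.548). The populations did not overlap in Pde3a, Adcy6 and Prkar1a, where 6.42% of all genes were apart in either direction.

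Partners of the polycystins in trafficking and calcium release were split, with 9 of 17 genes tested above 0 and 8 below and a median of 0.0025 (-0.041 without ST14low replicate 2 to 0.051 without ST14high replicate 4). Trpv4, a cation channel that works with polycystin-2 in cilia, was the gene with an unadjusted p under 0.05, where 9.56% of all genes had such a p. It was at 37.8 ± 6.80 CPM in ST14high cells, against 28.9 ± 2.42 CPM in ST14low cells. Arf4, which carries proteins toward the cilium, was at 218 ± 73.7 CPM in ST14high cells, against 183 ± 26.7 CPM in ST14low cells, and Furin, a protease of the proprotein convertase family, at 203 ± 10.7 CPM in ST14high cells, against 202 ± 17.6 CPM in ST14low cells. Itpr1, a calcium release channel, was at 193 ± 10.1 CPM in ST14high cells, against 183 ± 40.1 CPM in ST14low cells.

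**Figure D5:**
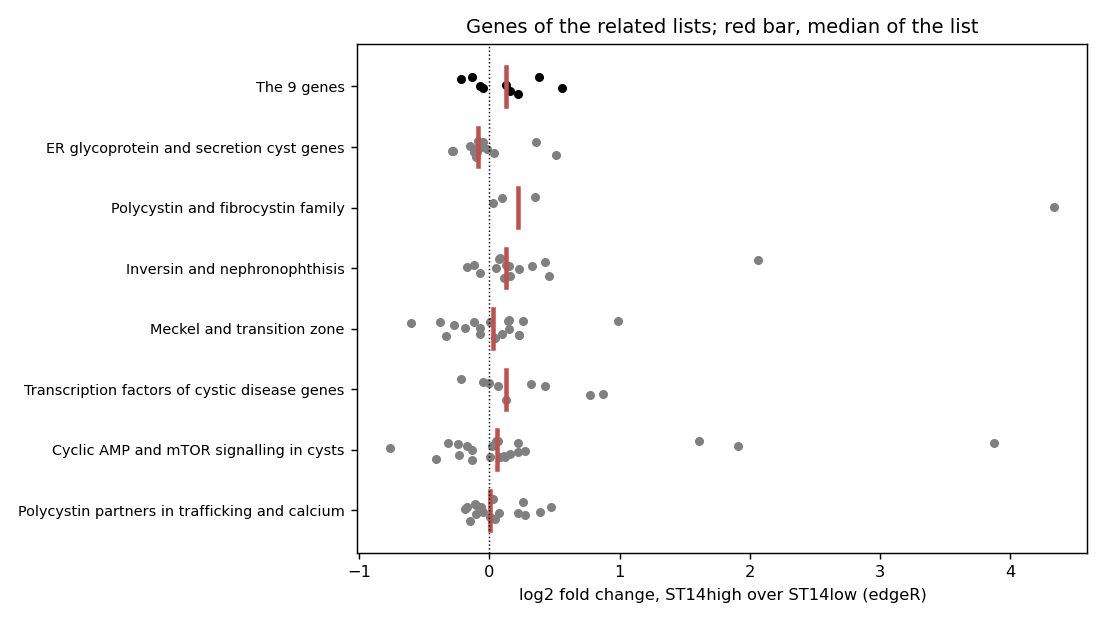
Log2 fold change of ST14high over ST14low (edgeR) for the 9 genes and for the tested genes of each related list; each dot is a gene and the red bar is the median. List medians lie between -0.089 and 0.22 with all libraries, and the dots far to the right are Pkhd1l1 at 4.34 and Pde3a at 3.88.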

How the data were processed

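RNA-seq libraries of ST14high and ST14low duct cells, 4 each, were compared. The submitters' processing notes name build mm9 with CASAVA 1.8.2 and Bowtie 1.0.0. No source used here gives the counting program, annotation release or strand setting. As deposited, per the file headers, the authors' tables hold for each of 26005 RefSeq transcripts a raw read count, without normalization, and an RPKM value. RPKM as deposited by the authors served for levels per length and relative transcript length (count over RPKM).

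For each symbol the transcript with the largest summed count was kept. No libraries were duplicates (chi-square over its degrees of freedom 17.8 to 352 in the 28 pairs). Differences were tested by the quasi-likelihood test of edgeR 4.0.16 (R 4.3.3), using filterByExpr and TMM scaling, with population as the only term and Benjamini-Hochberg adjustment over 13749 genes at 0.05. The common biological coefficient of variation was 38.4%. CPM use TMM-scaled library sizes. For single values an exact two-sided permutation test was run on log2(CPM + 0.5) over 70 arrangements. DESeq2 1.42.0, limma 3.58.1 (voom with quality weights), other scalings and filters, the widest transcript, the replicate block and leaving out each library were alternatives; length offsets and DESeq2 without each library were chosen after seeing the data. The procedure was tested on simulated data. The replicate numbers share no stated animal or day.

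The 9 genes and the lists were chosen with earlier results of these data known. Named beside the 9 were the 3 genes of highest mean CPM in each list, the 5 most like Pkhd1 and the listed markers. Some members of the transcription factor and marker lists are not reported here and are left out of their counts and sums. Sec62, B9d1, Onecut1, Adcy5, Adcy8, Pde3a and Trpv4 were chosen after their values were seen. Figures were made with Python 3.11.15 and matplotlib 3.10.9.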

Additional observations from a re-analysis of the deposited data

Results flagged for a closer look

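In ST14low replicate 2, Cys1 was at 62.1 CPM, where the other 3 ST14low libraries lay between 76.7 and 79.5 CPM. In ST14high replicate 1, 3 marker sums stood far above the other ST14high libraries. Mesothelial markers summed to 1021 CPM there and to 298 to 402 CPM in the others, markers of fibroblasts, stellate cells and smooth muscle to 2584 CPM and to 593 to 793 CPM, and pancreatic acinar markers to 6905 CPM and to 2.43 to 984 CPM. In ST14low replicate 1, acinar markers summed to 71.2 CPM, against 1.49 to 3.78 CPM in the other ST14low libraries. Each of these libraries lay farther from its nearest neighbour than Dixon's 95% limit for 4 samples allows. Of 38 groups of 4 libraries looked at, 5 were past it, where chance gives about 1 in 20.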

How the results depend on the processing

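None of the 9 genes passed an adjusted p of 0.05 in any of the other scalings, filters, tools and library subsets run. Counts over all genes were 0 in every edgeR and voom setting but the replicate block, which called 2; DESeq2 called 234, and, without ST14high replicates 1 to 4, 283, 262, 421 and 216 and, without ST14low replicates 1 to 4, 161, 177, 312 and 163 (chosen after seeing the data). At an unadjusted p under 0.05 edgeR gave 1315 genes. With 1 library left out of edgeR, log2 fold changes ranged from -0.20 to 0.011 for Pkhd1, -0.23 to 0.019 for Prkcsh, 0.24 to 0.45 for Pkd1 and 0.26 to 0.68 for Cys1. DESeq2 gave 0.0045 for Pkhd1 without ST14low replicate 1 and 0.029 for Prkcsh without ST14low replicate 2, and voom gave 0.023 for Invs. The Prkcsh to Ganab difference ranged from -0.10 to 0.11. In the lists DESeq2 called 1 gene each among the polycystin relatives, nephronophthisis, transcription factor and cyclic AMP lists, 1, 0 to 1, 0 to 3 and 1 to 2 with 1 library left out, and 0 in the other 3. With all libraries the same gene, Glis2, was called in both the nephronophthisis and the transcription factor lists. Over all genes DESeq2 called 1.72%. Genes near 0 changed sign, and so did Arf4, whose log2 fold change was 0.26 with all libraries. Leaving out 1 library took Hspa5 from -0.29 to 0.18, Pkd2l2 from -0.13 to 0.21, Csnk1d from -0.15 to 0.020, Sox9 from -0.14 to 0.0068, Itpr1 from -0.073 to 0.18, Arf4 from -0.0083 to 0.34 and Furin from -0.064 to 0.039. Upper-quartile factors gave -0.018 for Hspa5, -0.011 for Pkd2l2 and -0.037 for Furin. Furin was also at -0.0073 with DESeq2's size factors, -0.0081 in DESeq2, -0.016 in voom and -0.007 without a filter. Length offsets, chosen after seeing the data, gave -0.077 for Itpr1 and -0.037 for Furin. They moved Pkhd1 to -0.30, Invs to -0.16 and Pkd1 to 0.11, and the cause of the length trend was not tested. The labels do not say that same-numbered libraries share an animal or day, so the numbers were not taken as pairs. Deviations of same-numbered libraries from their population means had r from -0.125 to 0.052. With 4 libraries in each population this cannot exclude a shared animal or day. With the replicate block Hspa5 was at -0.041, Pkd1 at 0.39 and Cys1 at 0.50. Tmem67, at 225 counts in the shallowest library, was measured least precisely by counts.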
